A study of Homo sapiens with 9 samples.

Results

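Cell cycle and DNA replication genes were described in human cells labelled IMR-32, a neuroblastoma line, as 18 genes of G1 and S phase and 18 genes of G2 and mitosis. The 36 members were taken from a list of gene symbols and found in the table through their Ensembl identifiers. Of them 35 had a row among the 22290 genes of the table, 17 in the G1/S group and 18 in the G2/M group, and CDK2 was not analysed here. The series holds 9 RNA-seq libraries, 3 from parental cells of genotype WT, 3 labelled TRAP-1 knockdown (KD) and 3 labelled TRAP-1 overexpression (OE). All 9 carry the same cell line and tissue labels, IMR-32 and brain, and the KD and OE cells had been engineered in earlier work. How the KD and OE cells were selected, and whether either grew from 1 clone, is not given in the sources used here. RNA was taken in triplicate from each kind of cell with no word on separate cultures, so the p-values measure the spread between these libraries, which may be technical.

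A dividing cell licenses its replication origins in G1 by loading the MCM2-7 helicase with CDC6 and CDT1, copies its DNA in S phase around the sliding clamp PCNA, and then builds a spindle under CDK1 and the Aurora and Polo kinases. E2F1 drives many G1/S genes once cyclin D and cyclin E kinases have inactivated the retinoblastoma protein. Many mitotic genes are read later, through promoters that hold CCAAT boxes and a cell cycle homology region bound by MuvB complexes, with FOXM1 as an activator.

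Values were rlog, a log2 scale in which the authors scaled each library for its size and drew low counts toward the mean of the gene, and they ran from 0.138 to 18.54 over the table. Differences between groups are log2 differences of rlog, tested with limma over all 22290 genes and called at an adjusted p under 0.05. Since rlog is not scaled for gene length, a gap in rlog between genes is not a gap in transcripts, and sums over marker lists weigh long genes more. The 9956 genes with a mean rlog of 8 or more are called higher-level genes here. A pair of alternatives subtracts, in each library, the median deviation of a gene's 20-Mb block of chromosome, taken over all its genes or over its higher-level genes, the second added after the data were seen. The depth of the libraries cannot be read from rlog values.

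TRAP1, the targeted gene, was read first in every library (ENSG00000126602, chromosome 16 from 3651639 to 3717553, minus strand, GRCh38). TRAP1 stood at an rlog of 10.67, 10.66 and 10.65 in the parental libraries, 10.79, 10.79 and 10.83 in the libraries labelled KD and 10.67, 10.63 and 10.74 in the libraries labelled OE. All 3 libraries labelled KD lay above all 3 parental libraries, whereas the libraries labelled OE overlapped the parental ones. For TRAP1 the difference from parental was 0.14 (SE 0.025) with limma's adjusted p = 1.8e-05 in KD and 0.018 (SE 0.025) with adjusted p = 0.64 in OE, and OE minus KD was -0.12 (adjusted p = 1.5e-04). The OE difference from parental was called with the block medians of higher-level genes removed (0.064, limma, adjusted p = 0.034), and over all 19 alternatives that p ran from 0.034 to 0.999. It turned to -3.9e-05 with libraries centred on their median and to -0.012 without OE replicate 3. OE minus KD moved to -0.064 with the block medians of higher-level genes removed (limma, adjusted p = 0.024), and the KD difference stayed within 0.13 to 0.15 over the 19 alternatives. As deposited, TRAP1 RNA went against the knockdown label and was not called higher under the overexpression label, so KD and OE stand for the labels only. Whether the columns match the labelled samples, and whether the values count RNA from a transgene, was not tested. TRAP1 shares 28.5% of its exonic bases with other genes, among them DNASE1 on the opposite strand.

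Markers of the labelled cell type were divided. Of the 10 adrenergic markers with a row 5 had a mean rlog of at least 5 over the 9 libraries, beside 7 of 11 mesenchymal, 4 of 4 Schwann cell and melanocyte, 3 of 5 epithelial and 2 of 3 blood cell markers. The highest adrenergic markers, GATA2 and ISL1, averaged 9.27 and 9.37 in parental cells. MYCN, which is known to be amplified in IMR-32, averaged 2.52 in parental cells, the adrenergic factor PHOX2A 1.33 and tyrosine hydroxylase (TH) 2.84, and across the 3 groups none of these averaged over 2.84. DBH, STMN2 and ELAVL4 were not analysed here. Among mesenchymal and fibroblast markers VIM, the highest in rlog, averaged 15.72, and the collagens COL1A2 and COL3A1 1.35 and 1.16. The Schwann cell marker ERBB3 averaged 13.98, the epithelial markers KRT18 and EPCAM 12.06 and 2.59, and the blood cell markers CD74 and PTPRC 16.24 and 2.65. FEN1, PRC1 and NUSAP1, genes known to be expressed in dividing cells and named here for their low values, averaged 2.99, 2.66 and 0.63 in parental cells. They share 2.23%, 61.9% and 86.8% of their exonic bases with other genes, against 3.56% for MYCN, 3.98% for PHOX2A and 0% for TH. The annotation and the treatment of overlapping genes in counting are not given in the sources used here, so a low value need not mean little RNA. As deposited, the low MYCN goes against the IMR-32 label. Of the 10 adrenergic markers 5 passed the mark of 5, and 2 were higher-level genes with a mean of at least 8. At 8 stood 7 of 11 mesenchymal, 4 of 4 Schwann cell and melanocyte, 3 of 5 epithelial and 1 of 3 blood cell markers. The line is described as authenticated before culture, by a method not given in the sources used here, and whether the libraries differ from the label was not tested.

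Marker lists were read in the same comparisons, in which 26.9% of all genes were called higher and 26.9% lower in KD and 16.9% and 18% in OE, or 36.4%, 39.4%, 25.2% and 31.5% of the higher-level genes. Several shares of the marker lists lie near these. The log2 of the summed linear values of the mesenchymal markers was 16.75 in every parental library, 17.01 to 17.02 in KD and 17.00 to 17.02 in OE. Of the 11 of 12 mesenchymal markers with a row, 4 were called higher and 2 lower in KD (36.4% and 18.2%), and 6 and 0 in OE (54.5% and 0%, limma, with 0 lower at an unadjusted p under 0.05). The 2 lower in KD became 1 with genes averaging under 5 left out. PRRX1 rose most in both, by 1.29 in KD (limma, adjusted p = 3.1e-31) and 0.69 in OE (adjusted p = 5.0e-23), and FN1 (-0.96, limma, adjusted p = 3.0e-33) fell most in KD. The sum of the adrenergic markers was 10.64 to 10.67 in parental libraries, 10.51 to 10.55 in KD and 10.55 to 10.63 in OE. Of the 10 of 14 adrenergic markers with a row, 2 were called higher and 5 lower in KD (20% and 50%), and 0 and 2 in OE (0% and 20%, limma, with 0 higher at an unadjusted p under 0.05). The 2 higher in KD became 0 with genes averaging under 5 left out (limma, with 0 at an unadjusted p under 0.05), and 1 without parental replicate 2. The 5 lower in KD became 3 with genes averaging under 5 left out. The 2 lower in OE became 1 with genes averaging under 5 left out, or without parental replicate 1, and 4 with libraries centred on their median, or without OE replicate 2. The Schwann cell and melanocyte markers summed to 14.35 to 14.38, 14.57 to 14.60 and 14.52 to 14.53. Of the 4 of 6 Schwann cell and melanocyte markers with a row, 1 was called higher and 2 lower in KD (25% and 50%), and 4 and 0 in OE (100% and 0%, limma, with 0 lower at an unadjusted p under 0.05). The 1 higher in KD became 2 with the medians of all genes of a block removed or with the block medians of higher-level genes removed. Of the 5 of 8 epithelial markers with a row, 1 was called higher and 0 lower in KD (20% and 0%, limma, with 0 lower at an unadjusted p under 0.05), and 1 and 2 in OE (20% and 40%). The 1 higher in KD became 2 with genes averaging under 5 left out or with quantile normalization, or without KD replicate 1. The 0 lower in KD became 1 without a variance trend, with libraries centred on their median, with the medians of all genes of a block removed or with the block medians of higher-level genes removed, or without KD replicate 3. Of the 3 of 4 blood cell markers with a row, 1 was called higher and 1 lower in KD (33.3% and 33.3%), and 0 and 2 in OE (0% and 66.7%, limma, with 0 higher at an unadjusted p under 0.05). Their sums were 12.50 to 12.51, 12.52 to 12.58 and 12.36 to 12.38 for the epithelial list and 16.24, 16.36 to 16.40 and 16.16 to 16.17 for the blood cell list. Each sum leans on the highest genes of its list and can differ in direction from the median. Median differences in KD and OE were 0.055 and 0.15 for the mesenchymal and -0.11 and -0.036 for the adrenergic list. They were -0.092 and 0.22 for the Schwann cell and melanocyte, -0.025 and 0.011 for the epithelial and -0.016 and -0.075 for the blood cell list. Where a difference over 0.5 was also required, the calls higher and lower were 1 and 1 in KD and 2 and 0 in OE for the mesenchymal list, 0 and 0 in KD and 0 and 0 in OE for the adrenergic, 0 and 0 in KD and 0 and 0 in OE for the Schwann cell and melanocyte, 0 and 0 in KD and 0 and 1 in OE for the epithelial and 0 and 0 in KD and 0 and 0 in OE for the blood cell list (limma, with the same counts at an unadjusted p under 0.05). The part of these differences in the values of the cell cycle genes was not tested.

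Most G1/S members were lower, and most G2/M members higher, than in parental cells. Of the 17 G1/S members, 14 were called lower and 1 higher in KD, where 26.9% of all genes were called lower and 26.9% higher. Of the 18 G2/M members, 12 were called higher and 2 lower in that comparison. In KD the 1 higher G1/S call became 2 with quantile normalization, and the 2 lower G2/M calls became 1 with the block medians of higher-level genes removed. In OE, 15 G1/S members were called lower and 0 higher (limma, with 0 higher at an unadjusted p under 0.05), against 18% and 16.9% of all genes. The G2/M members gave 12 higher and 1 lower calls in OE. Over the whole table OE had 3762 higher and 4002 lower calls, a split that became 2963 and 5212 with libraries centred on their median and 4906 and 3713 with the block medians of higher-level genes removed. Both comparisons use the same 3 parental libraries, so they are not independent of each other. In bulk RNA, fewer cells in a phase and less RNA per cell cannot be told apart.

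Every member with a row was a higher-level gene. Among all such genes, KD was called higher for 36.4% and lower for 39.4%, and OE higher for 25.2% and lower for 31.5%. The median difference of the G1/S members was -0.18 in KD and -0.15 in OE. For the G2/M members it was 0.10 in KD and 0.083 in OE. Over all genes it was -0.00051 and 0.00039, and over the higher-level genes -0.0070 and -0.011. With the block medians of higher-level genes removed the G2/M medians were 0.065 in KD and 0.11 in OE, and the G1/S medians -0.18 and -0.16. The differences are small on the log2 scale: with an absolute difference over 0.5 also required, E2F1 is the only member called in either comparison with parental.

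Single libraries showed the same split. The median over the G1/S members of rlog minus the parental mean was -0.18, -0.17 and -0.19 in the 3 KD libraries and -0.16, -0.16 and -0.12 in the 3 OE libraries. Over the G2/M members it was 0.10, 0.090 and 0.11 in KD and 0.10, 0.085 and 0.080 in OE. The gap between the phases was 0.28, 0.26 and 0.30 in KD and 0.25, 0.25 and 0.20 in OE. A parental gap near 0 follows from the centring and is not given. Both phases are read in the same library, so an equal shift of all its values leaves this gap as it is. A shift that differs with the level of a gene can change the gap. With quantile normalization the G1/S and G2/M medians were -0.16 and 0.11 in KD and -0.13 and 0.10 in OE.

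**Figure D1:**
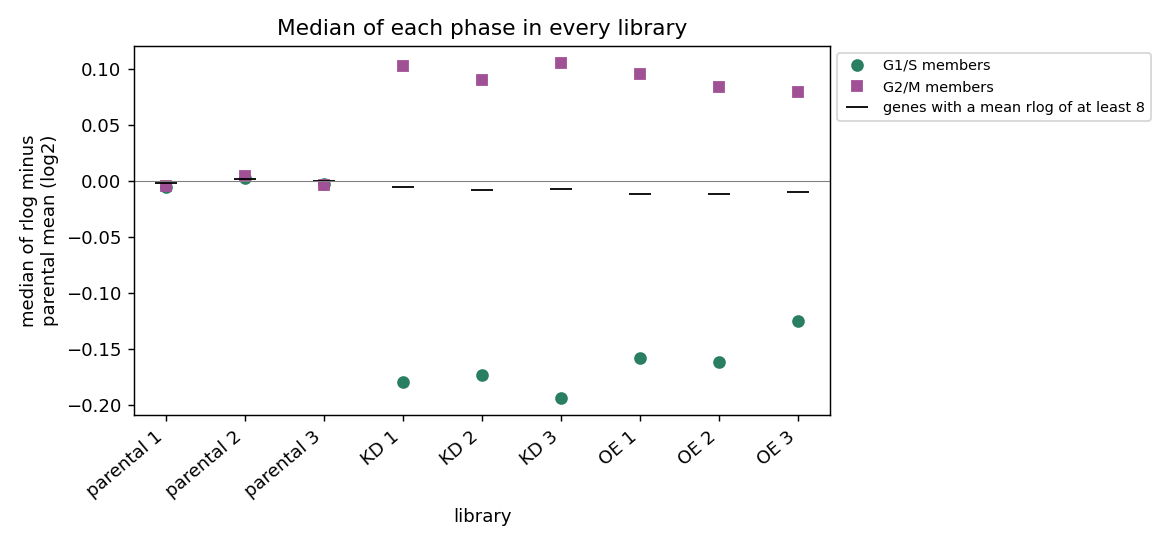
Median over the 17 G1/S members (circles), the 18 G2/M members (squares) and the higher-level genes (dashes) of rlog minus the parental mean, on a log2 scale, in each of the 9 libraries. All 6 libraries labelled KD or OE lie below 0 for the G1/S members and above 0 for the G2/M members, while the parental libraries lie near 0 through the centring.

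Promoter words were counted over all members with a RefSeq promoter, called or not, since the phases are known to differ in them. RefSeq promoters (GRCh38.p14, 250 bases before to 50 after the start) were matched for 13 G1/S and 14 G2/M members, and where a symbol had several, the promoter nearest the annotated start was used. They were searched on both strands for E2F words (TTTCCCGC, TTTGGCGC, TTTCGCGC and TTTGCCGC), the CCAAT box (CCAAT) and words of the cell cycle homology region (TTTGAA and TTCGAA), none of which contains another. An E2F word was present in 8 of the G1/S promoters and 1 of the G2/M promoters, against 3.31% of 35116 promoters in all. A cell cycle homology word was present in 2 G1/S and 10 G2/M promoters, against 16.4% of all. CCAAT was present in 8 G1/S and 12 G2/M promoters, against 34.6% of all. A match is a description of the sequence and says nothing of binding. Printed are members called in both comparisons with parental, of the G1/S genes E2F1 (chr20:33686336-33686635, minus strand) and PCNA (chr20:5126573-5126872, minus strand), and of the G2/M genes CCNB2 (chr15:59104896-59105195, plus strand) and CENPF (chr1:214602945-214603244, plus strand), each in gene direction with every match to these words in capitals.
E2F1: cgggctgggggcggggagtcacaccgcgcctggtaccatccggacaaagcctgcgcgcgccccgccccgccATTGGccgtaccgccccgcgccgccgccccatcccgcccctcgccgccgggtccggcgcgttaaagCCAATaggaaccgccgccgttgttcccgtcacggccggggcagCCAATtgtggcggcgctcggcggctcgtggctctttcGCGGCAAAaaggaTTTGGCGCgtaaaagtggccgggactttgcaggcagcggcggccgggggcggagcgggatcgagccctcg
PCNA: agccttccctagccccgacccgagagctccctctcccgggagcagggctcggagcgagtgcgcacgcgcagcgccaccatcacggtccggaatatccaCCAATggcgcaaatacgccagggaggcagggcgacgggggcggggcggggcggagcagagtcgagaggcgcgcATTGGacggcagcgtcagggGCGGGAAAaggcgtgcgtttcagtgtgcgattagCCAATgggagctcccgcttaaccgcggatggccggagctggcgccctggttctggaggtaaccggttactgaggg
CCNB2: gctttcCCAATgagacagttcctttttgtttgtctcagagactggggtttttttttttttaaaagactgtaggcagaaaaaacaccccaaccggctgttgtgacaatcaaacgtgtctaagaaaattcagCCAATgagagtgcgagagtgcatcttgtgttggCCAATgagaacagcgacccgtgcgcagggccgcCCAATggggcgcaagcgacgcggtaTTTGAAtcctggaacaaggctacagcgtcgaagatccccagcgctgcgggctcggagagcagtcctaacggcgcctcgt
CENPF: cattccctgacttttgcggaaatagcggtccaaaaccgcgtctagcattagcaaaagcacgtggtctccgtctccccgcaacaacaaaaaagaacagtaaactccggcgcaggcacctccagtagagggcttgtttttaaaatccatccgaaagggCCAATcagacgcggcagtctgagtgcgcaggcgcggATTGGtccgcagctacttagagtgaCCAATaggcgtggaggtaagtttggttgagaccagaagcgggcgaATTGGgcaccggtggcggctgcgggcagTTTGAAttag

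E2F1, the transcription factor that opens the G1/S programme, stood at an rlog of 11.12, 11.16 and 11.15 in the parental libraries, 10.29, 10.35 and 10.31 in the libraries labelled KD and 10.62, 10.59 and 10.62 in the libraries labelled OE. The 3 groups did not overlap, with parental highest and KD lowest. For E2F1 the difference from parental was -0.83 (SE 0.024) with limma's adjusted p = 4.5e-24 in KD and -0.54 (SE 0.024) with adjusted p = 2.6e-18 in OE, and OE minus KD was 0.29 (adjusted p = 3.4e-12). E2F1 had the largest fall of all members in both comparisons with parental. It lies on chromosome 20 (from 33675477 to 33686385, minus strand), in a 20-Mb block whose 89 other higher-level genes had a median difference of -0.33 in KD and -0.11 in OE. Of those neighbours 6.74% had a higher mean than parental in KD and 11.2% in OE. With the block medians of such genes removed, E2F1 was still called, at -0.49 in KD (limma, adjusted p = 3.2e-18) and -0.42 in OE (adjusted p = 1.1e-15), while OE minus KD shrank to 0.073 (adjusted p = 0.011).

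PCNA, the clamp that holds DNA polymerases on the template, stood at an rlog of 12.88, 12.88 and 12.88 in the parental libraries, 12.41, 12.37 and 12.44 in the libraries labelled KD and 12.58, 12.55 and 12.59 in the libraries labelled OE. All KD values lay below all OE values, and both groups lay below parental. For PCNA the difference from parental was -0.48 (SE 0.017) with limma's adjusted p = 3.0e-21 in KD and -0.31 (SE 0.017) with adjusted p = 1.3e-15 in OE, and OE minus KD was 0.17 (adjusted p = 8.5e-10). PCNA also lies on chromosome 20, in the block from 0 to 20 Mb, where 63 neighbours had a median of -0.11 in KD and -0.14 in OE. After removal of that block's median PCNA was at -0.33 in KD (limma, adjusted p = 2.4e-17) and -0.16 in OE (adjusted p = 6.7e-09). The annotation names 3 PCNA pseudogenes, and how reads that fit both were counted is not given in the sources used here. It also names 3 for RRM2, 2 for AURKA and 1 each for CDK4, MKI67, CCNB2, CDC20, BUB1 and AURKB.

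The helicase subunits MCM2 to MCM7 load onto origins as a ring. MCM2 fell by 0.16 in KD (SE 0.017, limma, adjusted p = 4.7e-10) and by 0.15 in OE (SE 0.017, adjusted p = 1.7e-08), with a parental mean of 12.58 ± 0.0080 (rlog, SD, n = 3). MCM4 fell by 0.21 in KD (SE 0.012, limma, adjusted p = 1.4e-15) and by 0.13 in OE (SE 0.012, adjusted p = 6.0e-10), with a parental mean of 13.81 ± 0.0040 (rlog, SD, n = 3). Both fell, and as deposited MCM5 showed the largest fall of the ring subunits. With the block medians of higher-level genes removed, MCM2 (-0.172) lay slightly below MCM5 (-0.169) in OE. MCM5 fell by 0.24 in KD (SE 0.021, limma, adjusted p = 3.1e-11) and by 0.21 in OE (SE 0.021, adjusted p = 1.4e-09), with a parental mean of 11.98 ± 0.019 (rlog, SD, n = 3). MCM6 fell by 0.13 in KD (SE 0.019, limma, adjusted p = 1.1e-06) and by 0.10 in OE (SE 0.019, adjusted p = 1.5e-04), with a parental mean of 11.98 ± 0.038 (rlog, SD, n = 3). MCM6 lay below every parental library in KD and OE, and the smallest called differences of the ring were those of MCM7. MCM7 fell by 0.069 in KD (SE 0.013, limma, adjusted p = 2.9e-05) and by 0.047 in OE (SE 0.013, adjusted p = 0.0044), with a parental mean of 14.21 ± 0.017 (rlog, SD, n = 3). The OE call of MCM7 was lost, by limma's adjusted p, without a variance trend (0.092) and without OE replicate 1 (0.064), and over all 19 alternatives that p ran from 2.5e-04 to 0.092. Its KD difference shrank to -0.041 with quantile normalization (limma, adjusted p = 0.0036). MCM3 had uncalled differences of 0.0054 in KD (SE 0.015, limma, adjusted p = 0.80) and -0.022 in OE (SE 0.015, adjusted p = 0.31), with a parental mean of 12.71 ± 0.012 (rlog, SD, n = 3). The libraries of MCM3 overlapped those of parental cells in both groups, and over the 19 alternatives its difference ran from -0.0076 to 0.038 in KD and from -0.040 to 0.0031 in OE, changing sign in both. MCM3 was called in KD with quantile normalization (0.038, limma, adjusted p = 0.029), and over all 19 alternatives that p ran from 0.029 to 0.96. In OE it was called with libraries centred on their median (-0.040, limma, adjusted p = 0.046), and over all 19 alternatives that p ran from 0.046 to 0.89.

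Among the ring subunits limma called an OE minus KD difference of 0.079 for MCM4 (adjusted p = 2.3e-06), and did not call 0.018 for MCM2 (adjusted p = 0.41), -0.027 for MCM3 (adjusted p = 0.16), 0.025 for MCM5 (adjusted p = 0.36), 0.031 for MCM6 (adjusted p = 0.20) and 0.022 for MCM7 (adjusted p = 0.17). The OE against KD call of MCM4 was lost, by limma's adjusted p, with the block medians of higher-level genes removed (0.053), and over all 19 alternatives that p ran from 5.4e-08 to 0.053. MCM7 gained that call with the medians of all genes of a block removed (0.032, limma, adjusted p = 0.035), with the block medians of higher-level genes removed (0.048, adjusted p = 0.0016) and without OE replicate 1 (0.036, adjusted p = 0.032), and over all 19 alternatives that p ran from 0.0016 to 0.97. MCM5 gained it with the block medians of higher-level genes removed (0.060, limma, adjusted p = 0.013), and over all 19 alternatives that p ran from 0.013 to 0.74. For MCM6 it was gained with the block medians of higher-level genes removed (0.075, limma, adjusted p = 0.0013), and over all 19 alternatives that p ran from 0.0013 to 0.39. For MCM3 that difference ran from -0.044 to 0.0022. It was called with quantile normalization (-0.044, limma, adjusted p = 0.013), and over all 19 alternatives that p ran from 0.013 to 0.92. An unstranded kit cannot separate MCM2 from the antisense gene with which it shares 23.6% of its exonic bases.

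The loading factors moved in different ways. CDC6, the ATPase that recruits the helicase, fell by 0.40 in KD (SE 0.021, limma, adjusted p = 3.9e-17) and by 0.24 in OE (SE 0.021, adjusted p = 4.5e-11), with a parental mean of 11.92 ± 0.039 (rlog, SD, n = 3). CDC6 fell further in KD, with an OE minus KD of 0.16 (limma, adjusted p = 1.0e-07). CDT1, its partner in loading, stood at an rlog of 11.05, 11.05 and 11.06 in the parental libraries, 11.27, 11.27 and 11.33 in the libraries labelled KD and 10.91, 10.95 and 10.95 in the libraries labelled OE. CDT1 was above every parental library in KD and below every parental library in OE. For CDT1 the difference from parental was 0.24 (SE 0.022) with limma's adjusted p = 4.0e-11 in KD and -0.11 (SE 0.022) with adjusted p = 8.3e-05 in OE, and OE minus KD was -0.35 (adjusted p = 4.5e-15). CDT1 was the only member called in opposite directions. The OE call of CDT1 was lost, by limma's adjusted p, with the block medians of higher-level genes removed (0.080), and over all 19 alternatives that p ran from 1.7e-05 to 0.080. In KD that alternative gave CDT1 0.26 (limma, adjusted p = 9.0e-13).

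CCNE2, a cyclin E that activates CDK2 at the start of S phase, stood at an rlog of 9.05, 9.16 and 9.26 in the parental libraries, 8.77, 8.69 and 8.70 in the libraries labelled KD and 8.82, 8.78 and 8.75 in the libraries labelled OE. The parental libraries spread more widely than the others but did not overlap them. For CCNE2 the difference from parental was -0.43 (SE 0.039) with limma's adjusted p = 3.6e-11 in KD and -0.37 (SE 0.039) with adjusted p = 3.8e-09 in OE, and OE minus KD was 0.063 (adjusted p = 0.21). CCNE2 overlaps other-strand genes over 37.1% of its exonic bases, of which INTS8 had differences of 0.00085 in KD and 0.070 in OE. CCNE1, the other cyclin E, fell by 0.24 in KD (SE 0.034, limma, adjusted p = 3.7e-07) and by 0.20 in OE (SE 0.034, adjusted p = 1.4e-05), with a parental mean of 8.85 ± 0.043 (rlog, SD, n = 3). Both cyclin E genes fell in both groups, and for CCNE1 too OE minus KD was not called (0.038, limma, adjusted p = 0.40).

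CCND1, the cyclin D that carries growth signals to CDK4 and CDK6, stood at an rlog of 13.91, 13.94 and 13.94 in the parental libraries, 13.78, 13.79 and 13.80 in the libraries labelled KD and 13.56, 13.57 and 13.57 in the libraries labelled OE. CCND1 was lowest in OE, with KD between OE and parental and no overlap. For CCND1 the difference from parental was -0.14 (SE 0.013) with limma's adjusted p = 3.9e-11 in KD and -0.36 (SE 0.013) with adjusted p = 1.0e-20 in OE, and OE minus KD was -0.22 (adjusted p = 7.1e-16). CCND1 overlaps LTO1 on the other strand over 10.4% of its exonic bases, and LTO1 had differences of -0.12 in KD and -0.12 in OE. CDK6, a kinase partner of cyclin D, fell by 0.16 in KD (SE 0.017, limma, adjusted p = 1.2e-09) and by 0.061 in OE (SE 0.017, adjusted p = 0.0044), with a parental mean of 13.50 ± 0.024 (rlog, SD, n = 3). The OE call of CDK6 was lost, by limma's adjusted p, without a variance trend (0.089) and with quantile normalization (0.068), and over all 19 alternatives that p ran from 2.3e-04 to 0.089. The difference shrank to -0.040 with the block medians of higher-level genes removed (limma, adjusted p = 0.042). CDK4, the related kinase, was not called as deposited. CDK4 had uncalled differences of -0.0079 in KD (SE 0.016, limma, adjusted p = 0.70) and -0.031 in OE (SE 0.016, adjusted p = 0.12), with a parental mean of 12.82 ± 0.0072 (rlog, SD, n = 3). Its OE difference was called with libraries centred on their median (-0.049, limma, adjusted p = 0.013) and without OE replicate 3 (-0.042, adjusted p = 0.048), and over all 19 alternatives that p ran from 0.013 to 0.46. In KD, where it turned to 0.0059 with quantile normalization, CDK4 was called with the block medians of higher-level genes removed (-0.064, limma, adjusted p = 4.9e-04), and over all 19 alternatives that p ran from 4.9e-04 to 0.89. For the kinases limma called an OE minus KD difference of 0.10 for CDK6 (adjusted p = 1.3e-05), and did not call -0.023 for CDK4 (adjusted p = 0.23). CDK4 overlaps TSPAN31 over 44.2% of its exonic bases, and TSPAN31 had differences of 0.38 in KD and 0.19 in OE, while with the block medians of higher-level genes removed the OE minus KD of CDK4 changed sign to 0.035 (limma, adjusted p = 0.047).

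Ribonucleotide reductase makes the deoxynucleotides for replication from its subunits RRM1 and RRM2. RRM1 fell by 0.18 in KD (SE 0.015, limma, adjusted p = 6.2e-12) and by 0.060 in OE (SE 0.015, adjusted p = 0.0026), with a parental mean of 12.83 ± 0.014 (rlog, SD, n = 3). RRM2 fell by 0.19 in KD (SE 0.014, limma, adjusted p = 2.8e-13) and by 0.23 in OE (SE 0.014, adjusted p = 9.6e-15), with a parental mean of 13.57 ± 0.018 (rlog, SD, n = 3). Both subunits fell in both groups, RRM1 further in KD and RRM2 further in OE. For this enzyme limma called an OE minus KD difference of 0.12 for RRM1 (adjusted p = 4.3e-08) and -0.041 for RRM2 (adjusted p = 0.013). The OE against KD call of RRM2 was lost, by limma's adjusted p, without a variance trend (0.083), with quantile normalization (0.098) and without KD replicate 2 (0.056), and over all 19 alternatives that p ran from 1.2e-04 to 0.098. The difference grew to -0.067 with the block medians of higher-level genes removed (limma, adjusted p = 1.2e-04). The annotation names 3 RRM2 pseudogenes.

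**Figure D2:**
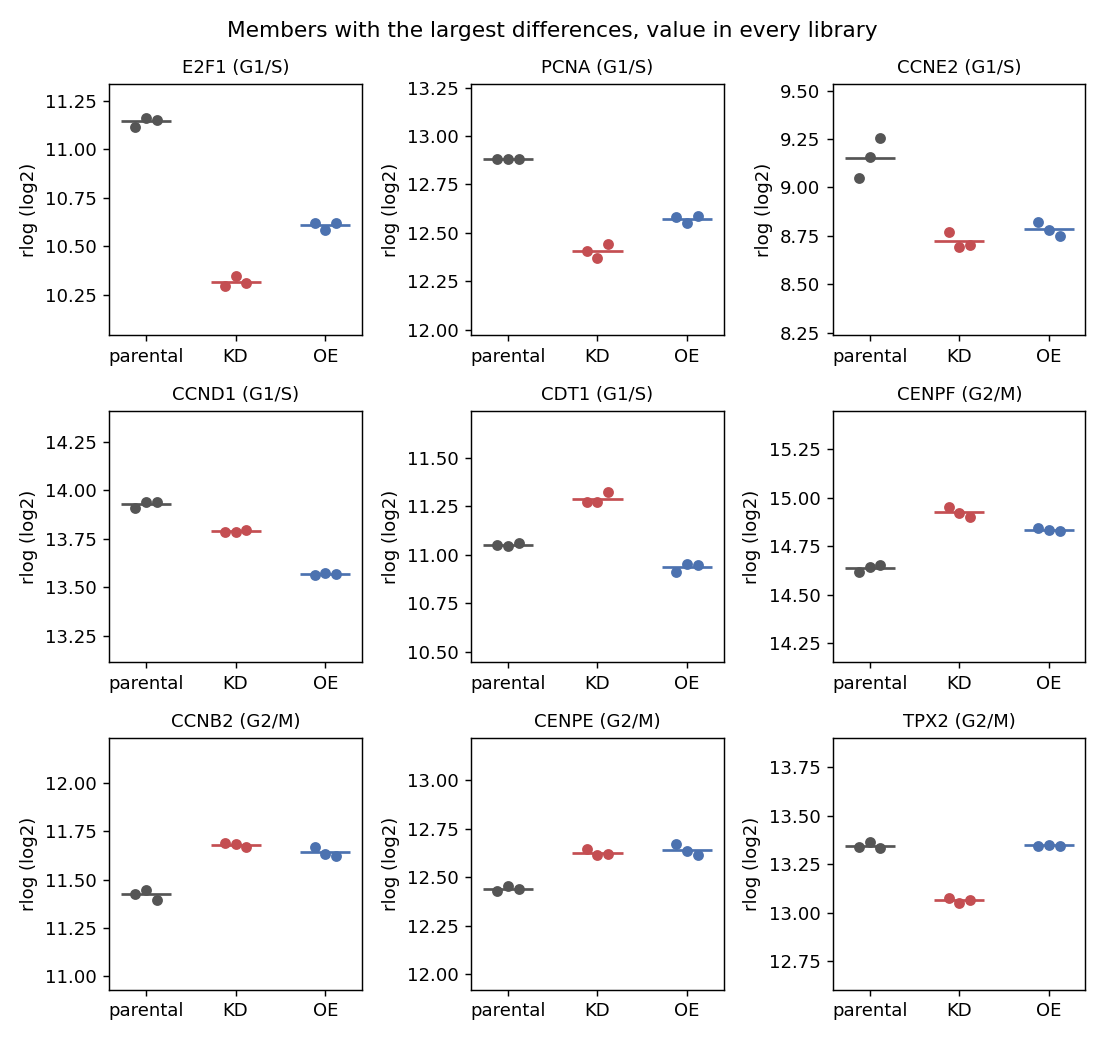
The rlog value (log2) of 9 members in every library, with points for libraries and lines for group means of 3, over the same height of scale in each panel. E2F1, PCNA, CCNE2 and CCND1 fall in KD and OE, CENPF, CCNB2 and CENPE rise, CDT1 splits, and TPX2 falls in KD, a sign that reverses with the block medians of higher-level genes removed.

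Of other replication origin and fork genes, 42 of 45 genes had a row. In KD 5 were called higher and 27 lower (11.9% and 64.3%), with a median difference of -0.095, and in OE 2 and 26 (4.76% and 61.9%), with a median of -0.083. The 5 higher in KD became 3 with libraries centred on their median or with the block medians of higher-level genes removed, or without parental replicate 3 or KD replicate 3. The 2 higher in OE became 1 without a variance trend, with the medians of all genes of a block removed or with the block medians of higher-level genes removed, or when parental replicate 1, parental replicate 2, parental replicate 3 or OE replicate 1 was left out, and 0 with libraries centred on their median (limma, with 2 at an unadjusted p under 0.05). With a difference over 0.5 also required, 0 higher and 3 lower in KD and 0 and 0 in OE were left (limma, with the same counts at an unadjusted p under 0.05). Without that rule, for comparison, the shares over all genes were 26.9% higher and 26.9% lower in KD and 16.9% and 18% in OE, and over the higher-level genes 36.4% and 39.4% in KD and 25.2% and 31.5% in OE. Of the 42 genes 41 were higher-level genes, as were 20 of 22 in the list of condensin, spindle and cytokinesis genes and every gene with a row in the other lists of this kind. The largest fall in KD was GINS1 (-0.66, limma, adjusted p = 2.4e-22), a subunit of the active helicase, and the largest rise RFC4 (0.23, limma, adjusted p = 9.4e-11), a clamp loader subunit whose difference turned to -0.00062 (adjusted p = 0.98) with the block medians of higher-level genes removed and shrank to 0.14 with those of all genes removed. In OE the largest fall was CLSPN (-0.40, limma, adjusted p = 2.8e-16), a fork checkpoint adaptor, and the largest rise ORC3 (0.082, limma, adjusted p = 0.017), an origin recognition subunit. The OE call of ORC3 was lost, by limma's adjusted p, without a variance trend (0.055), with libraries centred on their median (0.075), with the medians of all genes of a block removed (0.11), with the block medians of higher-level genes removed (0.22), without parental replicate 2 (0.18) and without OE replicate 1 (0.086), and over all 19 alternatives that p ran from 0.0063 to 0.22. GINS1 lies in the same block of chromosome 20 as E2F1 and moved to -0.33 with the block medians of higher-level genes removed (limma, adjusted p = 1.7e-14), and RFC4 lies in a block whose neighbours had a median of 0.23 in KD. CLSPN was at -0.53 in KD (limma, adjusted p = 3.0e-20), and its block neighbours had a median of -0.031. The rank of GINS1 is therefore that of the deposited values only. FEN1, the flap nuclease, counts among the lower calls in KD (-0.11, limma, adjusted p = 0.0043) at the low rlog given above. GINS4, POLA2 and POLD4 were not analysed here.

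Of the nucleotide supply genes, 8 of 8 genes had a row. In KD 2 were called higher and 5 lower (25% and 62.5%), with a median difference of -0.10, and in OE 1 and 4 (12.5% and 50%), with a median of -0.062. The 1 higher in OE became 2 with the replicate number as a block, or without OE replicate 3. The 4 lower in OE became 2 with the block medians of higher-level genes removed. Requiring a difference over 0.5 as well left 0 higher and 1 lower in KD and 0 and 0 in OE (limma, with the same counts at an unadjusted p under 0.05). Without that rule the shares stand against 26.9% and 26.9% of all genes and 36.4% and 39.4% of higher-level genes in KD, and 16.9% and 18%, and 25.2% and 31.5%, in OE. DUT (0.10, limma, adjusted p = 8.4e-06), the dUTPase, rose most in KD, and SAMHD1 (-0.57, limma, adjusted p = 3.1e-16), which degrades deoxynucleotides, fell most. SAMHD1 also lies in the chromosome 20 block of E2F1, with a neighbour median of -0.33 in KD, and moved to -0.24 with the block medians of higher-level genes removed (limma, adjusted p = 1.3e-07). DUT (0.063, limma, adjusted p = 0.0053) also rose most in OE, and DTYMK (-0.14, limma, adjusted p = 4.3e-07), thymidylate kinase, fell most. Of the CDK inhibitors, 6 of 8 genes had a row. In KD 3 were called higher and 3 lower (50% and 50%), with a median difference of 0.092, and in OE 4 and 1 (66.7% and 16.7%), with a median of 0.15. Over 0.5 in size were 1 higher and 2 lower in KD and 0 and 0 in OE (limma, with the same counts at an unadjusted p under 0.05). In KD CDKN2C (0.54, limma, adjusted p = 5.6e-19) rose most and CDKN1C (-0.85, limma, adjusted p = 2.5e-18) fell most. In OE CDKN3 (0.27, limma, adjusted p = 2.3e-09), a phosphatase of CDKs, rose most and CDKN1A (-0.48, limma, adjusted p = 6.7e-20), the p53 target p21, fell most. CDKN2A and CDKN2B were not analysed here.

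Of the RB, E2F and MuvB regulators, 17 of 20 genes had a row. In KD 3 were called higher and 9 lower (17.6% and 52.9%), with a median difference of -0.11, and in OE 3 and 10 (17.6% and 58.8%), with a median of -0.092. Calls with a difference over 0.5 were 0 higher and 1 lower in KD and 0 and 0 in OE (limma, with the same counts at an unadjusted p under 0.05). Without that rule the shares stand against 26.9% and 26.9% of all genes and 36.4% and 39.4% of higher-level genes in KD, and 16.9% and 18%, and 25.2% and 31.5%, in OE. In KD E2F5 (0.44, limma, adjusted p = 1.5e-12), a repressive E2F, rose most and RBL1 (-0.50, limma, adjusted p = 3.0e-19), a relative of the retinoblastoma protein, fell most. In OE RBL2 (0.20, limma, adjusted p = 8.0e-10) rose most and CCND3 (-0.33, limma, adjusted p = 1.7e-12), a cyclin D, fell most. RBL1 shares the chromosome 20 block with E2F1, and its KD difference moved to -0.17 with the block medians of higher-level genes removed (limma, adjusted p = 3.5e-08). E2F8, LIN37 and CCND2 were not analysed here.

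CCNB2, a cyclin B partner of CDK1, stood at an rlog of 11.43, 11.45 and 11.40 in the parental libraries, 11.69, 11.68 and 11.67 in the libraries labelled KD and 11.67, 11.63 and 11.62 in the libraries labelled OE. Every library labelled KD or OE lay above every parental one. For CCNB2 the difference from parental was 0.26 (SE 0.020) with limma's adjusted p = 7.2e-13 in KD and 0.22 (SE 0.020) with adjusted p = 1.3e-10 in OE, and OE minus KD was -0.039 (adjusted p = 0.11). The latter was called with the block medians of higher-level genes removed (-0.049, limma, adjusted p = 0.029), and over all 19 alternatives that p ran from 0.029 to 0.32. CCNB1, the main cyclin B, rose by 0.10 in KD (SE 0.013, limma, adjusted p = 1.8e-07) and by 0.14 in OE (SE 0.013, adjusted p = 1.8e-10), with a parental mean of 13.49 ± 0.0077 (rlog, SD, n = 3). CCNB1 rose further in OE, with an OE minus KD of 0.046 (limma, adjusted p = 0.0038). The OE against KD call of CCNB1 was lost, by limma's adjusted p, with the block medians of higher-level genes removed (0.19), and over all 19 alternatives that p ran from 2.7e-04 to 0.19. CCNA2, cyclin A of S and G2 phase, rose by 0.15 in KD (SE 0.018, limma, adjusted p = 2.8e-08) and by 0.076 in OE (SE 0.018, adjusted p = 0.0011), with a parental mean of 11.94 ± 0.0073 (rlog, SD, n = 3). With the block medians of higher-level genes removed, CCNA2 was no longer called, at 0.034 in KD (limma, adjusted p = 0.11) and 0.038 in OE (adjusted p = 0.10), and with those of all genes removed its KD difference was 0.10 (adjusted p = 4.9e-05). As deposited, CCNA2 was lower in OE than in KD (-0.070, limma, adjusted p = 0.0018), and that difference lost its call at -0.040 (adjusted p = 0.072) with the medians of all genes of a block removed and changed sign to 0.0044 (adjusted p = 0.86) with those of higher-level genes removed.

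Of the mitotic kinases, AURKA was called in both comparisons with parental. CDK1, the mitotic kinase itself, had an uncalled difference of 0.018 in KD (SE 0.016, limma, adjusted p = 0.35) and rose by 0.081 in OE (SE 0.016, adjusted p = 9.1e-05), with a parental mean of 12.68 ± 0.019 (rlog, SD, n = 3). In KD CDK1 was called with quantile normalization (0.048, limma, adjusted p = 0.011) and with the block medians of higher-level genes removed (0.045, adjusted p = 0.014), and over all 19 alternatives that p ran from 0.011 to 0.75. PLK1, the Polo kinase, rose by 0.082 in KD (SE 0.018, limma, adjusted p = 2.2e-04) and had an uncalled difference of 0.040 in OE (SE 0.018, adjusted p = 0.083), with a parental mean of 12.49 ± 0.0082 (rlog, SD, n = 3). PLK1 gained its OE call with quantile normalization (0.057, limma, adjusted p = 0.012), with the medians of all genes of a block removed (0.048, adjusted p = 0.031), with the block medians of higher-level genes removed (0.065, adjusted p = 0.0027) and without OE replicate 1 (0.058, adjusted p = 0.018), and over all 19 alternatives that p ran from 0.0027 to 0.51. Its KD difference shrank to 0.048 with the block medians of higher-level genes removed (limma, adjusted p = 0.016), and PLK1 overlaps other-strand genes over 12.8% of its exonic bases. AURKA, the spindle pole Aurora kinase, rose by 0.10 in KD (SE 0.016, limma, adjusted p = 2.1e-06) and by 0.086 in OE (SE 0.016, adjusted p = 4.9e-05), with a parental mean of 12.62 ± 0.017 (rlog, SD, n = 3). AURKB, the Aurora kinase of the passenger complex, rose by 0.078 in KD (SE 0.020, limma, adjusted p = 0.0010) and had an uncalled difference of -0.021 in OE (SE 0.020, adjusted p = 0.46), with a parental mean of 11.73 ± 0.029 (rlog, SD, n = 3). Among the kinases limma called an OE minus KD difference of 0.063 for CDK1 (adjusted p = 0.0011) and -0.10 for AURKB (adjusted p = 7.7e-05), and did not call -0.042 for PLK1 (adjusted p = 0.055) and -0.014 for AURKA (adjusted p = 0.50). That of CDK1 shrank to 0.038 with the block medians of higher-level genes removed (limma, adjusted p = 0.041). The OE minus KD of PLK1 was called with robust fitting (-0.042, limma, adjusted p = 0.045), with genes averaging under 5 left out (-0.042, adjusted p = 0.035), with libraries centred on their median (-0.049, adjusted p = 0.029), with quantile normalization (-0.044, adjusted p = 0.039), with the replicate number as a block (-0.042, adjusted p = 0.045) and without OE replicate 3 (-0.064, adjusted p = 0.0028), and over all 19 alternatives that p ran from 0.0028 to 0.43. It changed sign to 0.017 with the block medians of higher-level genes removed. AURKA lies on chromosome 20 from 56369389 to 56392337, where 79 neighbours had a median of 0.071 in KD and -0.018 in OE. With block medians of higher-level genes removed AURKA was at 0.046 in KD (limma, adjusted p = 0.014) and 0.10 in OE (adjusted p = 3.2e-06), and its OE minus KD changed sign to 0.057 (adjusted p = 0.0030), as it did, uncalled at 0.017, with those of all genes removed.

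BUB1 and BUB1B of the spindle checkpoint rose in both groups. BUB1, a kinetochore kinase, rose by 0.19 in KD (SE 0.018, limma, adjusted p = 6.1e-11) and by 0.19 in OE (SE 0.018, adjusted p = 2.3e-10), with a parental mean of 12.01 ± 0.026 (rlog, SD, n = 3). BUB1B, which encodes BubR1, rose by 0.16 in KD (SE 0.018, limma, adjusted p = 1.6e-09) and by 0.12 in OE (SE 0.018, adjusted p = 2.1e-06), with a parental mean of 12.19 ± 0.029 (rlog, SD, n = 3). BUB1B overlaps PAK6 over 10.2% of its exonic bases, and PAK6 had differences of -0.017 in KD and -0.31 in OE. CDC20, the activator of the anaphase-promoting complex that the checkpoint holds back, had uncalled differences of 0.0075 in KD (SE 0.015, limma, adjusted p = 0.71) and 0.015 in OE (SE 0.015, adjusted p = 0.49), with a parental mean of 13.26 ± 0.021 (rlog, SD, n = 3). Over the 19 alternatives CDC20 ran from -0.0037 to 0.021 in KD and from -0.0030 to 0.036 in OE. For these genes and survivin limma called an OE minus KD difference of -0.045 for BUB1B (adjusted p = 0.035), and did not call -0.00029 for BUB1 (adjusted p = 0.99), 0.0075 for CDC20 (adjusted p = 0.72) and 0.019 for BIRC5 (adjusted p = 0.41). That of BUB1 ran from -0.010 to 0.018 and that of CDC20 from -0.0033 to 0.019. The OE against KD call of BUB1B was lost, by limma's adjusted p, without a variance trend (0.090), with quantile normalization (0.11), without KD replicate 1 (0.11), without KD replicate 2 (0.065), without OE replicate 1 (0.070) and without OE replicate 2 (0.13), and over all 19 alternatives that p ran from 0.0097 to 0.13. BIRC5, survivin of the passenger complex, had an uncalled difference of 0.027 in KD (SE 0.018, limma, adjusted p = 0.21) and rose by 0.047 in OE (SE 0.018, adjusted p = 0.042), with a parental mean of 12.08 ± 0.012 (rlog, SD, n = 3). The OE difference of BIRC5 passed the threshold narrowly. The OE call of BIRC5 was lost, by limma's adjusted p, without a variance trend (0.097), with only the 2 groups compared (0.056), with libraries centred on their median (0.24), without parental replicate 2 (0.091), without parental replicate 3 (0.12), without KD replicate 2 (0.052), without OE replicate 1 (0.14) and without OE replicate 2 (0.19), and over all 19 alternatives that p ran from 0.0016 to 0.24. The difference grew to 0.074 with quantile normalization (limma, adjusted p = 0.0016) and 0.073 with the block medians of higher-level genes removed (adjusted p = 0.0017). In KD BIRC5 was called with quantile normalization (0.043, limma, adjusted p = 0.043) and with the block medians of higher-level genes removed (0.051, adjusted p = 0.017), and over all 19 alternatives that p ran from 0.017 to 0.48.

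CENPF, a large kinetochore protein, stood at an rlog of 14.62, 14.64 and 14.65 in the parental libraries, 14.95, 14.92 and 14.90 in the libraries labelled KD and 14.84, 14.83 and 14.83 in the libraries labelled OE. KD lay highest, OE in between and parental lowest, with no overlap. For CENPF the difference from parental was 0.29 (SE 0.012) with limma's adjusted p = 8.4e-20 in KD and 0.20 (SE 0.012) with adjusted p = 6.7e-15 in OE, and OE minus KD was -0.089 (adjusted p = 1.4e-07). CENPE, the kinetochore motor, stood at an rlog of 12.43, 12.46 and 12.44 in the parental libraries, 12.64, 12.62 and 12.62 in the libraries labelled KD and 12.67, 12.64 and 12.61 in the libraries labelled OE. Libraries labelled KD and OE overlapped each other and lay above parental. For CENPE the difference from parental was 0.19 (SE 0.017) with limma's adjusted p = 3.6e-11 in KD and 0.20 (SE 0.017) with adjusted p = 2.9e-11 in OE, and OE minus KD was 0.013 (adjusted p = 0.56). The KD difference of CENPE shrank to 0.12 with the block medians of higher-level genes removed (limma, adjusted p = 1.9e-07). Its OE minus KD was called with the block medians of higher-level genes removed (0.050, limma, adjusted p = 0.0083), and over all 19 alternatives that p ran from 0.0083 to 0.93. It turned to -0.0024 without OE replicate 1. KIF11, the motor that pushes spindle poles apart, rose by 0.12 in KD (SE 0.015, limma, adjusted p = 3.0e-08) and by 0.14 in OE (SE 0.015, adjusted p = 5.1e-09), with a parental mean of 12.82 ± 0.0033 (rlog, SD, n = 3). TOP2A, which untangles sister DNA, rose by 0.17 in KD (SE 0.012, limma, adjusted p = 5.1e-14) and by 0.19 in OE (SE 0.012, adjusted p = 7.1e-15), with a parental mean of 14.76 ± 0.016 (rlog, SD, n = 3). Both rose in KD and OE. Of this pair limma did not call the OE minus KD difference of 0.019 for KIF11 (adjusted p = 0.34) and 0.026 for TOP2A (adjusted p = 0.067). That of TOP2A was called with the block medians of higher-level genes removed (0.037, limma, adjusted p = 0.0090), without KD replicate 1 (0.038, adjusted p = 0.0090) and without OE replicate 3 (0.033, adjusted p = 0.025), and over all 19 alternatives that p ran from 0.0090 to 0.31. That of KIF11 was called with quantile normalization (0.040, limma, adjusted p = 0.022), and over all 19 alternatives that p ran from 0.022 to 0.72. The KD difference of TOP2A shrank to 0.11 with quantile normalization (limma, adjusted p = 2.0e-06).

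TPX2, a spindle factor that activates Aurora A, stood at an rlog of 13.34, 13.36 and 13.33 in the parental libraries, 13.07, 13.05 and 13.07 in the libraries labelled KD and 13.35, 13.35 and 13.34 in the libraries labelled OE. Only the KD libraries stood apart, below all others. For TPX2 the difference from parental was -0.28 (SE 0.014) with limma's adjusted p = 9.6e-18 in KD and 0.0017 (SE 0.014) with adjusted p = 0.95 in OE, and OE minus KD was 0.28 (adjusted p = 1.3e-17). TPX2 lies at 31739271 to 31801805 on chromosome 20, in the block of E2F1, where 89 other higher-level genes had a median of -0.34 in KD. With the block medians of these genes removed the KD difference of TPX2 was 0.052 (limma, adjusted p = 0.0017) and the sign reversed, while with the median of all genes of the block removed it was -0.16. In OE the first of these gave 0.12 (limma, adjusted p = 2.6e-08), where the difference ran from -0.016 to 0.12 over the 19 alternatives, and it reduced OE minus KD to 0.065 (adjusted p = 1.8e-04).

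FOXM1, the activator of late mitotic genes, fell by 0.17 in KD (SE 0.020, limma, adjusted p = 1.3e-08) and by 0.13 in OE (SE 0.020, adjusted p = 2.3e-06), with a parental mean of 11.60 ± 0.029 (rlog, SD, n = 3). FOXM1 fell in both groups, unlike most G2/M members, and it overlaps ITFG2 on the other strand over 15.9% of its exonic bases. ITFG2 had uncalled differences of -0.059 in KD and -0.054 in OE. MKI67, the proliferation antigen Ki-67, had uncalled differences of 0.018 in KD (SE 0.011, limma, adjusted p = 0.18) and 0.015 in OE (SE 0.011, adjusted p = 0.34), with a parental mean of 14.74 ± 0.015 (rlog, SD, n = 3). For this pair limma did not call the OE minus KD difference of 0.034 for FOXM1 (adjusted p = 0.17) and -0.0032 for MKI67 (adjusted p = 0.85). That of FOXM1 was called with the block medians of higher-level genes removed (0.055, limma, adjusted p = 0.027), and over all 19 alternatives that p ran from 0.027 to 0.46. The OE difference of MKI67 ran from -0.017 to 0.020 and its OE minus KD from -0.025 to 0.046. MKI67 was called in KD without KD replicate 3 (0.029, limma, adjusted p = 0.0498), and over all 19 alternatives that p ran from 0.0041 to 0.72. Quantile normalization turned its sign in KD to -0.038 (limma, adjusted p = 0.0041) and in OE against KD to 0.046 (adjusted p = 9.2e-04).

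**Figure D3:**
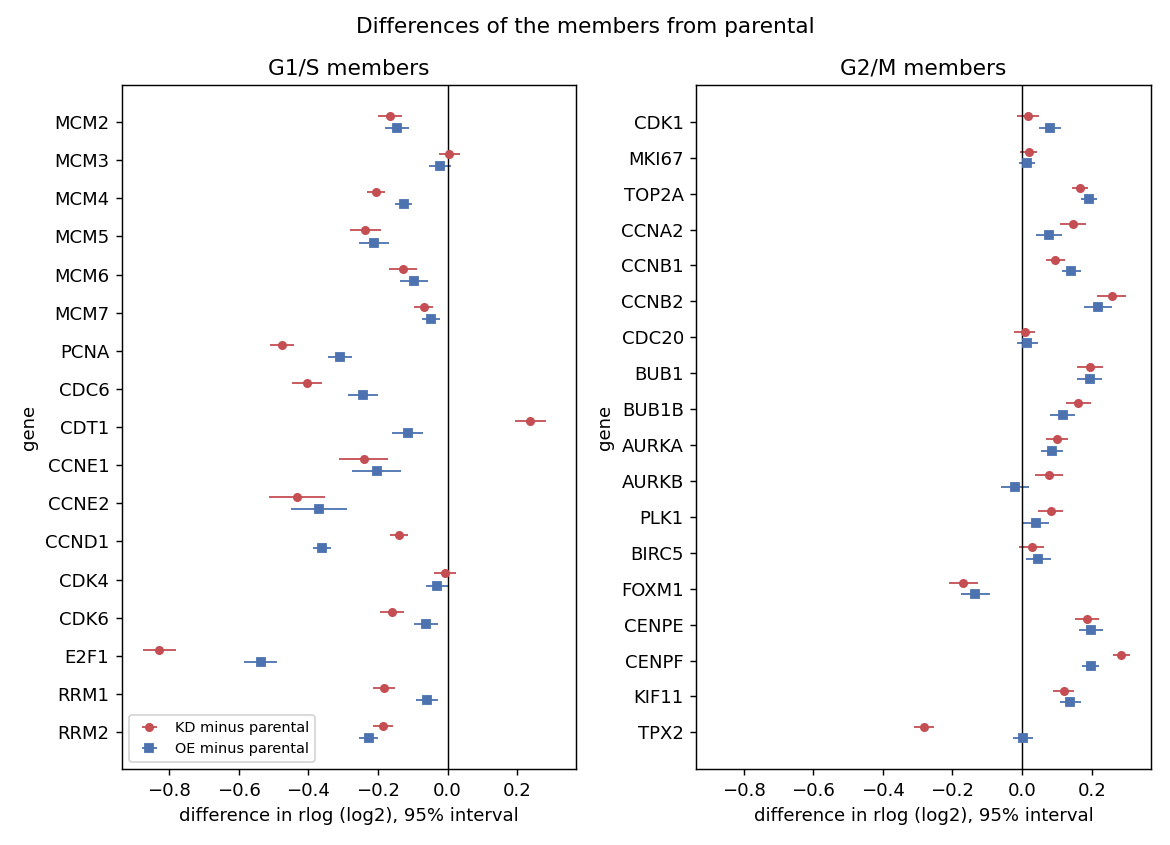
Difference in rlog from parental (log2) of every member with a row, with 95% intervals from limma, for KD (circles) and OE (squares), the 17 G1/S members on the left and the 18 G2/M members on the right. Most G1/S members lie left of 0, but in KD CDT1 (called) and MCM3 (uncalled) lie right of it. Most G2/M members lie right of 0, but FOXM1 lies left of it, as do AURKB in OE (uncalled) and TPX2 in KD. The sign of TPX2 in KD reverses with the block medians of higher-level genes removed.

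Of other mitotic kinase, checkpoint and anaphase-promoting genes, 19 of 19 genes had a row. In KD 8 were called higher and 5 lower (42.1% and 26.3%), with a median difference of 0.012, and in OE 4 and 3 (21.1% and 15.8%), with a median of 0.018. The 3 lower in OE became 5 with libraries centred on their median. Under the added rule of a difference over 0.5, 0 higher and 1 lower in KD and 0 and 0 in OE remained (limma, with the same counts at an unadjusted p under 0.05). Without that rule the shares stand against 26.9% and 26.9% of all genes and 36.4% and 39.4% of higher-level genes in KD, and 16.9% and 18%, and 25.2% and 31.5%, in OE. In KD NEK2 (0.28, limma, adjusted p = 3.5e-14), a centrosome kinase, rose most and CDC25A (-0.67, limma, adjusted p = 7.6e-23), the phosphatase that activates CDKs, fell most. In OE NEK2 (0.21, limma, adjusted p = 2.5e-10) rose most and CDC25A (-0.36, limma, adjusted p = 4.2e-15) fell most. CDC25A lies in a block of chromosome 3 whose neighbours had a median of -0.30 in KD and -0.00031 in OE, and its KD difference moved to -0.37 with the block medians of higher-level genes removed (limma, adjusted p = 2.4e-16).

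Of the centromere, kinetochore and passenger genes, 15 of 17 genes had a row. In KD 4 were called higher and 7 lower (26.7% and 46.7%), with a median difference of -0.040, and in OE 4 and 3 (26.7% and 20%), with a median of 0.0087. A difference over 0.5 was reached by 0 higher and 0 lower in KD and 0 and 0 in OE (limma, with the same counts at an unadjusted p under 0.05). Without that rule the shares stand against 26.9% and 26.9% of all genes and 36.4% and 39.4% of higher-level genes in KD, and 16.9% and 18%, and 25.2% and 31.5%, in OE. In KD CENPA (0.24, limma, adjusted p = 1.1e-10), the centromeric histone, rose most and CENPM (-0.26, limma, adjusted p = 4.8e-09) fell most. In OE CENPA (0.15, limma, adjusted p = 4.0e-06) rose most and CENPK (-0.10, limma, adjusted p = 5.5e-04) fell most. CENPN and CENPW were not analysed here. Of the condensin, spindle and cytokinesis genes, 22 of 23 genes had a row. In KD 13 were called higher and 5 lower (59.1% and 22.7%), with a median difference of 0.064, and in OE 13 and 2 (59.1% and 9.09%), with a median of 0.067. The 2 lower in OE became 1 without a variance trend, with quantile normalization, with the medians of all genes of a block removed or with the block medians of higher-level genes removed, or when parental replicate 2, parental replicate 3, KD replicate 2, OE replicate 1, OE replicate 2 or OE replicate 3 was left out. Those over 0.5 in size were 0 higher and 0 lower in KD and 0 and 0 in OE (limma, with the same counts at an unadjusted p under 0.05). In KD ASPM (0.33, limma, adjusted p = 1.5e-18), a spindle pole protein, rose most and SMC2 (-0.37, limma, adjusted p = 9.8e-18), a condensin subunit, fell most. SMC2 lies in a block of chromosome 9 whose neighbours had a median of -0.36 in KD, and its difference moved to -0.24 with the medians of all genes of a block removed (limma, adjusted p = 7.0e-13). The KD call of SMC2 was lost, by limma's adjusted p, with the block medians of higher-level genes removed (0.36), and over all 19 alternatives that p ran from 5.4e-24 to 0.36. In OE HMMR (0.29, limma, adjusted p = 7.8e-14), a spindle protein, rose most and CKAP2L (-0.15, limma, adjusted p = 1.3e-06) fell most. PRC1 and NUSAP1, with the low values given above, were not called in either. SMC4 was not analysed here.

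**Figure D4:**
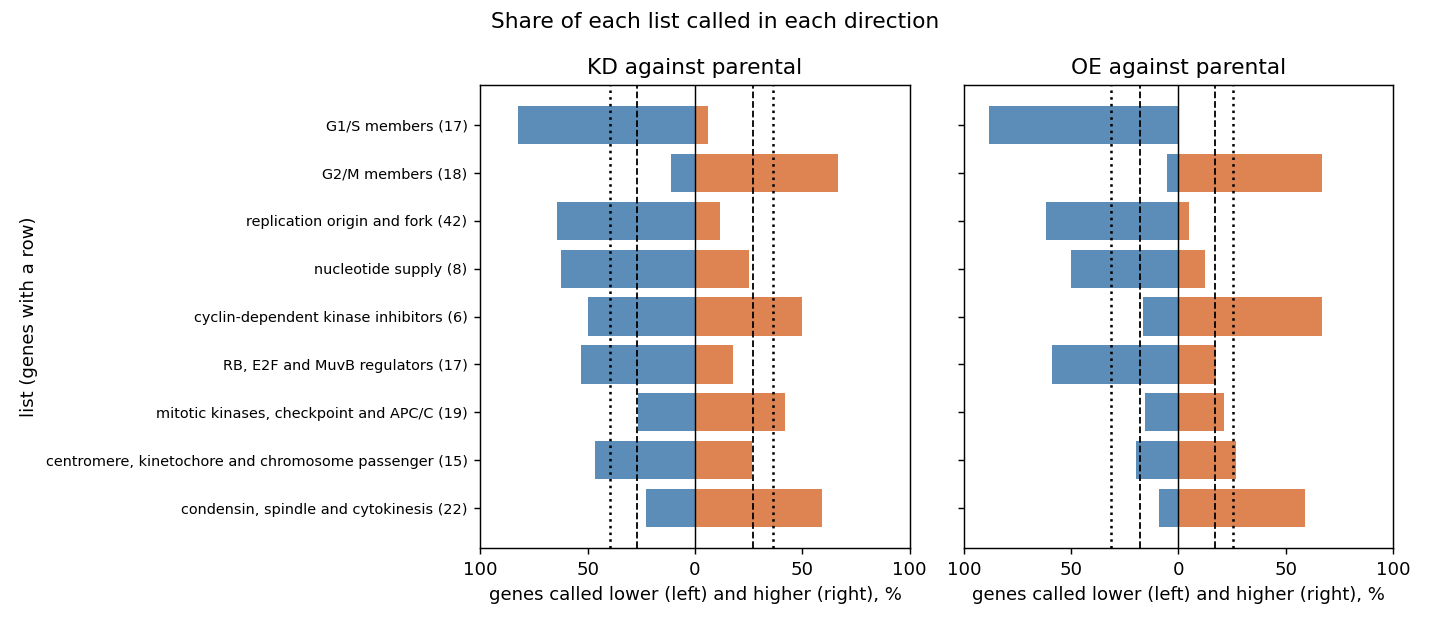
Percent of the genes with a row in each list that were called lower (left of 0) and higher (right of 0) by limma, for KD on the left and OE on the right, with the percent over all genes as dashed lines and over the higher-level genes as dotted lines. The replication lists lean to lower calls and the condensin, spindle and cytokinesis list to higher calls. The centromere, kinetochore and passenger list has 26.7% higher and 46.7% lower in KD and 26.7% and 20% in OE. The mitotic kinase, checkpoint and anaphase-promoting list has 42.1% and 26.3% in KD and 21.1% and 15.8% in OE.

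OE and KD were also compared with each other, a difference that holds no parental value. Of the G1/S members, 6 were called higher in OE than in KD and 3 lower, where 23.5% of all genes were called higher and 23.8% lower. Among higher-level genes these shares were 33.3% and 34.9%, beside 35.3% and 17.6% of the G1/S members. Of the G2/M members, 3 were called higher and 4 lower, or 16.7% and 22.2%, and the 3 became 5 with quantile normalization and 6 with the block medians of higher-level genes removed. The median difference was 0.031 for the G1/S members and 0.0036 for the G2/M members, beside 0.00078 over all genes and -0.0032 over the higher-level genes. That of the G2/M members grew to 0.014 with the medians of all genes of a block removed, 0.018 with those of higher-level genes removed, 0.016 with quantile normalization and 0.0066 without KD replicate 1, shrank to 0.0011 without OE replicate 1, and changed sign to -0.0032 with libraries centred on their median and -0.0018 without OE replicate 2.

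**Figure D5:**
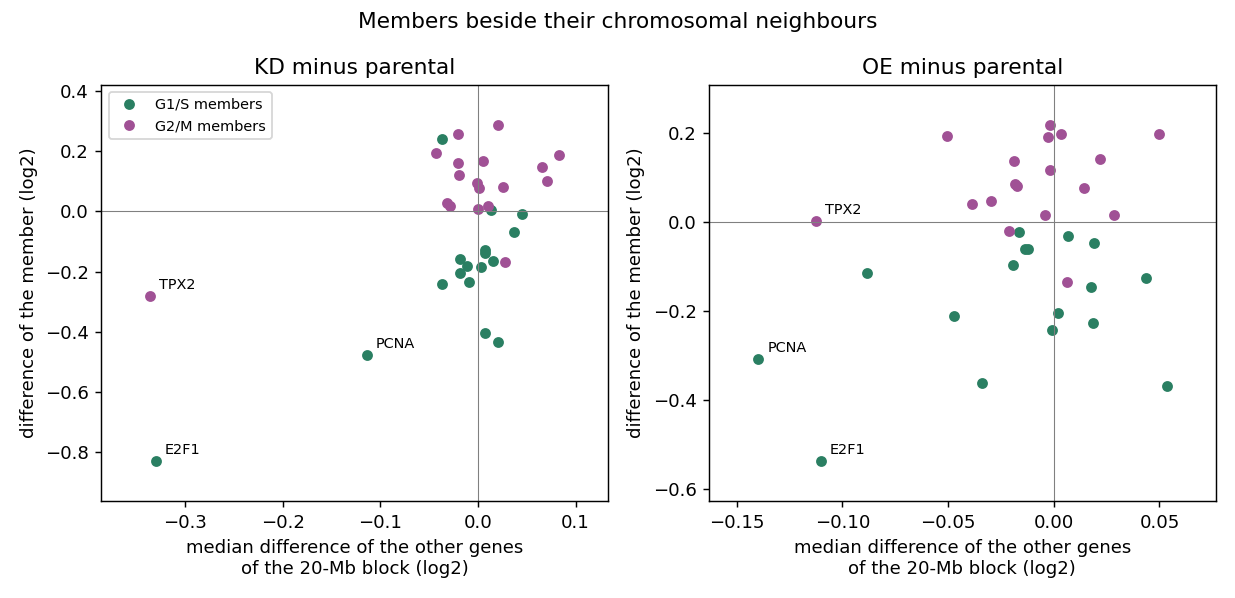
Difference of each member from parental (log2) against the median difference of the other higher-level genes in its 20-Mb block, for KD on the left and OE on the right. The neighbours of E2F1, TPX2 and PCNA, on chromosome 20, have the lowest medians in both panels.

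The shares of cells in each phase were not measured, and the values are of RNA only. The rlog transform draws differences toward 0, so fold changes in counts cannot be read from them.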

How the data were processed

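RNA-seq libraries were made with an unstranded Illumina TruSeq kit from 3 parental, 3 KD and 3 OE samples. The authors trimmed reads with cutadapt, aligned them with HISAT2 to GRCh38, assigned them to genes with featureCounts, dropped genes with few reads and deposited rlog values, a log2 scale, from DESeq2. Tool versions and the annotation are not given in the sources used here.

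Identifiers were matched to GENCODE symbols and positions for 22195 of 22290 genes. All 9 libraries entered 1 limma model (R 4.3.3, limma 3.58.1) with a variance trend and no filter, tested on simulated data, with Benjamini-Hochberg adjustment over all genes. Alternatives were no trend, robust fitting, a mean rlog of at least 5, pairs of groups, median centring, quantile normalization, 20-Mb block medians, a difference over 0.5, a replicate block and each library left out. Every member is named, with library values for the 3 largest called differences per phase and comparison with parental and for members called in opposite directions, and other lists by their largest called rise and fall. Members and lists were chosen with earlier results of these data known. Some marker genes are not reported here by name.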

Additional observations from a re-analysis of the deposited data

How the results depend on the processing

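Every difference of the 35 members was recomputed under 19 alternatives, and of 1995 recomputed differences 1827 kept their direction and their side of the threshold, 98 lost a call, 71 of them where a difference over 0.5 was also required, 34 gained a call, and 36 changed sign, 6 where the difference was called as deposited or in the alternative and 30 where it was called in neither. Of the differences of genes named from other lists 559 kept both, 29 lost a call and 1 changed sign, and of the counts of those lists 826 lay within 1.5 times the reported count and 86 did not, 42 of them where a difference over 0.5 was also required. Leaving out single libraries kept the G1/S median in KD at -0.19 to -0.18 and in OE at -0.16 to -0.14, and the G2/M median at 0.092 to 0.10 and 0.079 to 0.089.

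Quantile normalization gave medians of -0.16 (G1/S) and 0.11 (G2/M) in KD, -0.13 and 0.10 in OE and 0.016 for G2/M in OE against KD, with 2 G1/S members called higher in KD and 5 G2/M members higher in OE than in KD. It turned MKI67 to -0.038 in KD and 0.046 in OE against KD, and the cause was not tested. Uncalled signs also changed in KD for CDK4 (0.0059) and in OE against KD for BUB1 (0.018). Centring libraries on their median gave 0.086 for G2/M in KD, and -0.16 and 0.065 for G1/S and G2/M in OE, and uncalled signs changed in KD for MCM3 (-0.0058) and CDC20 (-0.0037) and in OE for MKI67 (-0.0027), CDC20 (-0.0030), TPX2 (-0.016) and TRAP1 (-3.9e-05).

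Removing the median of all genes of a 20-Mb block gave 0.083 for G2/M in KD, -0.17 for G1/S in OE and 0.014 for G2/M in OE against KD, and uncalled signs changed in KD for MCM3 (-0.0076) and CDC20 (-1.0e-05), in OE for MKI67 (-0.0053) and in OE against KD for BUB1 (0.0082) and AURKA (0.017). Removing that of the higher-level genes, chosen after seeing the data, gave 0.065, -0.16 and 0.018 for the same medians and 0.11 for G2/M in OE. It left 1 G2/M member lower in KD and made 6 higher in OE than in KD. Signs changed, with a call before or after, for TPX2 in KD (0.052) and, in OE against KD, for CDK4 (0.035), CCNA2 (0.0044) and AURKA (0.057), and RFC4 stood at -0.00062 in KD, while uncalled signs changed in OE for MCM3 (0.0031) and MKI67 (-0.017) and in OE against KD for MCM3 (0.0022), BUB1 (0.010) and PLK1 (0.017). TRAP1 in OE was called at 0.064 (limma, adjusted p = 0.034).

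Leaving out single libraries also turned uncalled signs. The ranges were -0.0014 to 0.0097 for MCM3 and -0.00054 to 0.019 for CDC20 in KD, -0.0045 to 0.010 for TPX2 and -0.012 to 0.042 for TRAP1 in OE, and, in OE against KD, -0.013 to 0.0044 for MKI67, -0.0033 to 0.016 for CDC20, -0.010 to 0.0087 for BUB1 and -0.0024 to 0.027 for CENPE.

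Requiring a difference over 0.5 as well left 1 G1/S member lower in KD and 1 in OE, and every other count of members called higher or lower, in each comparison, was 0 by limma, at an unadjusted p under 0.05 as well, since no other member difference is over 0.5 in size. Over the whole table it left 604 higher and 506 lower in KD, 129 and 71 in OE, and 357 and 436 in OE against KD, where 5985 and 5995, 3762 and 4002, and 5237 and 5315 were called without it. TRAP1 fell short of it at 0.14 in KD and -0.12 in OE against KD.

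The replicate numbers were not taken to pair the libraries, since correlations of deviations from the group mean were not all over 0.1: they ranged from -0.071 to 0.14 for the same number, over 9 pairs, and from -0.14 to 0.075 for different numbers, over 18 pairs. In 5 of 18 cases a library correlated best with the library of its own number, among the 3 libraries of another group. The column names carry a second number that runs through parental, KD and OE of each replicate number in turn. What that number stands for is not given in the sources used here. With the replicate number as a block, 5992 genes were called higher and 6023 lower in KD, and PLK1 in OE against KD was the only member difference to change its call (limma, adjusted p = 0.045). Depth per library is not given on the rlog scale.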
